A study of Mus musculus with 22 samples.

Results

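Broad promoter domains of H3K27me3 were compared between Jarid2 conditional knockout (cKO) and control mouse retina at embryonic day 18.5. The domains were the rows of the deposited peak table that were annotated to a promoter of a protein-coding gene, were at least 10000 bp wide and lay outside chromosome X. This rule used place, biotype and width, and no comparison of genotypes. It gave 1140 of 19034 peaks, annotated to 1111 genes. They covered 22 Mb, which was 24.7% of the base pairs in peaks, although they were 5.99% of the peaks. The median width was 14.7 kb (quartiles 11.9 and 20.6 kb, widest 270 kb), against 2.79 kb over all peaks, and 34 domains were wider than 50 kb.

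H3K27me3 was mapped by CUT&RUN, in which a nuclease held by an antibody cuts out the DNA at marked nucleosomes, in 5 cKO and 5 control animals on a C57BL/6 background. Every cKO animal was Jarid2 fl/fl with Rx-cre. Controls 2, 4 and 5 were Jarid2 fl/+ without Cre, control 3 was Jarid2 fl/fl without Cre, and control 1 was Jarid2 fl/+ with Rx-cre. The protocol text instead gives fl/fl for controls, and the genotypes of the sample labels were used. All litters were exposed to tamoxifen, 75 µg per g of the mother's weight at E10.5, so any Cre effect other than loss of Jarid2 was shared only by control 1. Batch 1 held 2 animals per group of both sexes from a single litter, and batch 2 held 3 male littermates per group with 2 technical duplicates each. Each sample was 2 pooled whole retinas, so cells that kept Jarid2 were counted with those that lost it, and less mark per cell cannot be told apart from fewer marked cells. Loss of Jarid2 was not checked here, since a count of H3K27me3 does not measure the allele.

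Polycomb repressive complex 2 (PRC2) places H3K27me3 on nucleosomes, and the mark is a hallmark of genes held silent. Jarid2 is an accessory subunit that helps bring PRC2 to chromatin and stimulates it. PRC2 is known to settle on CpG-rich promoters, and its broadest domains lie over developmental regulators such as the Hox clusters, which stay silent in the retina. In the developing retina, progenitors give rise to neuron types in an order, and Polycomb marks change over the regulators of those types as this happens. Of 6 regulators that define retinal progenitors (Rax, Pax6, Six3, Six6, Lhx2 and Sox2), only Lhx2 carried a broad domain. Pax6 had a narrow promoter peak of 4.36 CPM per kb (reads in the peak relative to all reads in peaks of an animal, scaled as CPM, per kb of peak). Rax, Six3, Six6 and Sox2 had no peak among those analysed here.

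Promoter windows of 6 genes are shown because their domains stand for the main classes below: Atoh7 and Flrt3 were lower in cKO, Espn was higher, Hoxa10 and Evx2 lie in the widest domains, and Robo3 was the uncalled domain with the smallest standard error. Each window runs from 250 bases before to 50 after a RefSeq start (GRCm38.p6), 5′ to 3′ on the gene's strand, with every CG dinucleotide in capitals.
Atoh7, chr10:63099535-63099834, plus strand: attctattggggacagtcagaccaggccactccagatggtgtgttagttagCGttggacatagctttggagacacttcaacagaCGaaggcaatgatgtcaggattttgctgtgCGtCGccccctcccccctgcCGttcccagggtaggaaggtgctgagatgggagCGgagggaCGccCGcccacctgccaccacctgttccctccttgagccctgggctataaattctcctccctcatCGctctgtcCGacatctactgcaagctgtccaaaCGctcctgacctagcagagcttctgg
Flrt3, chr2:140671427-140671726, minus strand: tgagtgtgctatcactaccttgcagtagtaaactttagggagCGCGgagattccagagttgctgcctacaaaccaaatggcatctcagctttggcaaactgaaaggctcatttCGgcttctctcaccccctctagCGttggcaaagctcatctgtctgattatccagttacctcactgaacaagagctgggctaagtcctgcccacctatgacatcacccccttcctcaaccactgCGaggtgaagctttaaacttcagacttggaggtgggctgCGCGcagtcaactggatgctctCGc
Espn, chr4:152128876-152129175, minus strand: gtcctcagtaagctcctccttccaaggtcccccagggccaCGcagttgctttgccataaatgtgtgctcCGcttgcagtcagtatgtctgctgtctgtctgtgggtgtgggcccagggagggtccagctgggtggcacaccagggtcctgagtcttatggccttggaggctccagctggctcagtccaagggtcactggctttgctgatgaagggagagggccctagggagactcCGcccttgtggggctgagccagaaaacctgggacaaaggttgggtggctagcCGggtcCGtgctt
Hoxa10, chr6:52234890-52235189, minus strand: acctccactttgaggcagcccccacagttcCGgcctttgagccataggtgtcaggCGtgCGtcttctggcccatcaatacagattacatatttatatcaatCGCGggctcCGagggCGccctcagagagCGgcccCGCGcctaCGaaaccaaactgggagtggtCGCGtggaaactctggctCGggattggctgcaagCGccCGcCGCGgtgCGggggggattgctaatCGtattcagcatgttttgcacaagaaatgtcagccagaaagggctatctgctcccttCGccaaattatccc
Evx2, chr2:74659508-74659807, minus strand: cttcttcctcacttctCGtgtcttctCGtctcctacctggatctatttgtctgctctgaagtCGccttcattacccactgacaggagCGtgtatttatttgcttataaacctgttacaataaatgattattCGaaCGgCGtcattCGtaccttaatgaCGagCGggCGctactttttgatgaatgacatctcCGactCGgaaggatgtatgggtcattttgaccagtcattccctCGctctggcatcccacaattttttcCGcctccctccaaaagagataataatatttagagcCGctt
Robo3, chr9:37433126-37433425, minus strand: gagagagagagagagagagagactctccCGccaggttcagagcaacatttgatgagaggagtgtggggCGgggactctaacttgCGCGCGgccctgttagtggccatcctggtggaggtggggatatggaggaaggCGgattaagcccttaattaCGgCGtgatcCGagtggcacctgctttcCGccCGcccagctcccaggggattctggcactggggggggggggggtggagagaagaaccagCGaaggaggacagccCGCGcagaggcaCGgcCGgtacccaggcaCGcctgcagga
The windows held 11 CG in Atoh7, 8 in Flrt3, 5 in Espn, 21 in Hoxa10, 16 in Evx2 and 17 in Robo3. A window of the gene itself lay inside the domain for 673 of the 1140 domains. Many genes of the other domains had no window in the RefSeq set used. These 673 held a median of 18 CG, against 14 in the 16457 windows of all autosomal coding genes of the RefSeq table and 15 in 1833 narrow promoter peaks. A GC content of at least 50% with a CpG ratio (observed over expected) of at least 0.6 was met by 57.2% of domain windows, 46.5% of all windows and 47.4% of windows in narrow peaks. Of the windows in domains called lower, 12 of 30 met it, with a median of 12 CG, and in domains called higher 1 of 5 did, with a median of 6 CG. The CG search is a description of these letters and draws nothing about PRC2 binding.

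An animal held 1688368 to 2864080 reads in peaks, and a broad domain 47 to 21321 reads in an animal, with a median of 520. Counts and intervals cover counting error and the spread between animals. The 6 pairs of technical duplicates differed by less than sampling noise and were summed, so that each animal counted once: the chi-square of their counts was 0.866 to 0.956 per degree of freedom. Between animals of the same genotype and batch it was 1.04 to 2.39. Broad promoter domains held 45.3%, 42.5%, 42.3%, 41.0% and 39.4% of an animal's reads in peaks in controls 1 to 5, and 43.3%, 44.3%, 42.6%, 42.0% and 41.1% in cKO 1 to 5. The groups overlapped in this share, and the means were 42.1% ± 2.18 (SD, n = 5) in controls and 42.7% ± 1.22 (SD, n = 5) in cKO.

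Most broad promoter domains differed little in H3K27me3 between cKO and control. Of 1140 tested, 59 (5.18%) were lower in cKO and 17 (1.49%) were higher at an adjusted p under 0.05 (edgeR quasi-likelihood test with batch as a term, Benjamini-Hochberg adjustment over 15415 peaks). Over all tested peaks 7.95% were lower and 1.6% were higher, so the share of domains called lower was below the background and the share called higher was near it. The median log2 fold change of the domains was 0.0013, against 0.0198 over all tested peaks. Of the 1064 uncalled domains, 76.4% lay within 0.1 of no change on the log2 scale and 97.4% within 0.2. Scaling moved the split: with total counts in place of TMM factors 52 were lower and 67 higher, with offsets for a trend with abundance 63 and 69, and with DESeq2 size factors 57 and 11. Leaving out single animals gave 44 to 95 lower (95 without control 5) and 8 to 33 higher (33 without control 1 and 8 without control 2), and without the batch term 17 were lower and 1 higher.

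**Figure D1:**
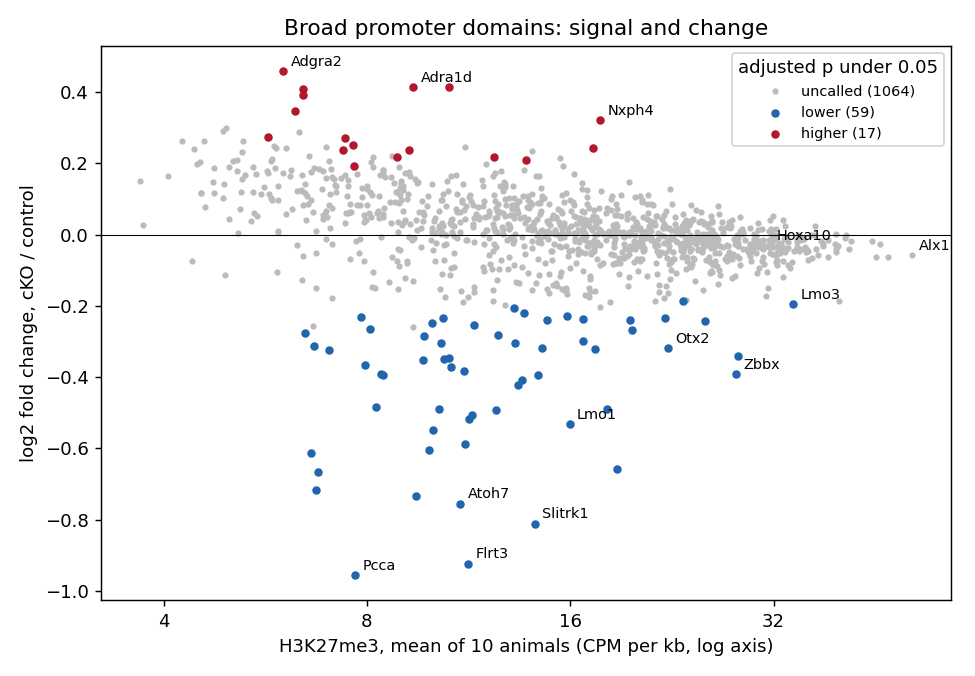
Log2 fold change (cKO over control) of the 1140 broad promoter domains against their mean H3K27me3 in CPM per kb (log axis), each point a domain. The 59 lower domains (blue) reach -0.96 and the 17 higher ones (red) 0.46, and nearly all of the densest domains, to the right, lie close to 0.

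The domains called lower fell by modest amounts. Their median log2 fold change was -0.35, a 1.27-fold decrease, and they ranged from -0.96 to -0.19. Of the 59, 11 fell by more than 1.5-fold and 0 by more than 2-fold in the fit over both batches. In batch 1 by itself Pcca, Flrt3 and Lgr5 had larger decreases, of -1.37, -1.29 and -1.08 on the log2 scale. All 59 had the same sign in both batches, and in 45 the animals of the groups did not overlap within either batch. Among uncalled domains 39 of 1064 were apart within both batches in this way, and among all broad domains 98 of 1140. The calls rest on the same values, so these counts describe them and add no support.

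Some regulators of retinal fate were among the lower domains, although most were uncalled. Of 38 domains on retinal neuron regulators 4 were lower, 0 higher and 34 uncalled, where 7.95% of all tested peaks were lower. Atoh7, the basic helix-loop-helix factor needed to make retinal ganglion cells, had the smallest adjusted p of all domains. Its 12.2 kb domain (chr10:63090450-63102610, mm10) covered the whole 1.5 kb gene. It held 105, 142, 203, 210 and 177 CPM in controls 1 to 5 and 62.1, 62.6, 128, 119 and 128 CPM in cKO 1 to 5. Within each batch every cKO animal was below every control, while the cKO of batch 2 overlapped the controls of batch 1. The log2 fold change was -0.75 ± 0.08 (SE, adjusted p = 5.16e-06 by edgeR), a 1.69-fold decrease. Otx2, a homeobox factor of photoreceptors and bipolar cells, fell from 734 ± 67.1 to 587 ± 29.8 CPM (SD, n = 5 each; log2 fold change -0.32 ± 0.07 SE, adjusted p = 0.00222 by edgeR), with no overlap between the groups. Its domain was called in all 10 fits without 1 animal, but in neither batch alone. Zfhx4, a large zinc finger and homeobox factor, fell from 610 ± 125 to 440 ± 118 CPM (SD, n = 5 each; log2 fold change -0.49 ± 0.07 SE).

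Single genes of cell adhesion and axon guidance were among the strongest decreases. Flrt3, a leucine-rich repeat membrane protein of cell adhesion and axon guidance, held 126, 202, 225, 234 and 207 CPM in controls 1 to 5 and 70.6, 62.6, 127, 128 and 143 CPM in the cKO animals. Its log2 fold change was -0.92 ± 0.11 (SE, adjusted p = 8.43e-06 by edgeR), with the groups apart within each batch and not across them. Slitrk1, a synaptic membrane protein that shapes neurite growth, held 160, 281, 284, 270 and 280 CPM in controls and 147, 132, 136, 152 and 156 CPM in cKO. Here all 5 cKO animals were below all 5 controls, and control 1, the one with Cre, stood just above them (log2 fold change -0.81 ± 0.10 SE, adjusted p = 1.57e-05 by edgeR). Sema3a, a secreted repellent of axons, had 2 broad domains that both fell, by 0.51 and 0.52 on the log2 scale. Reln, the matrix protein reelin that guides migrating neurons, fell from 121 ± 36.3 to 72.3 ± 16.4 CPM (SD, n = 5 each; 1.66-fold). The domain of Kcnj3, a potassium channel subunit, fell 1.52-fold.

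**Figure D2:**
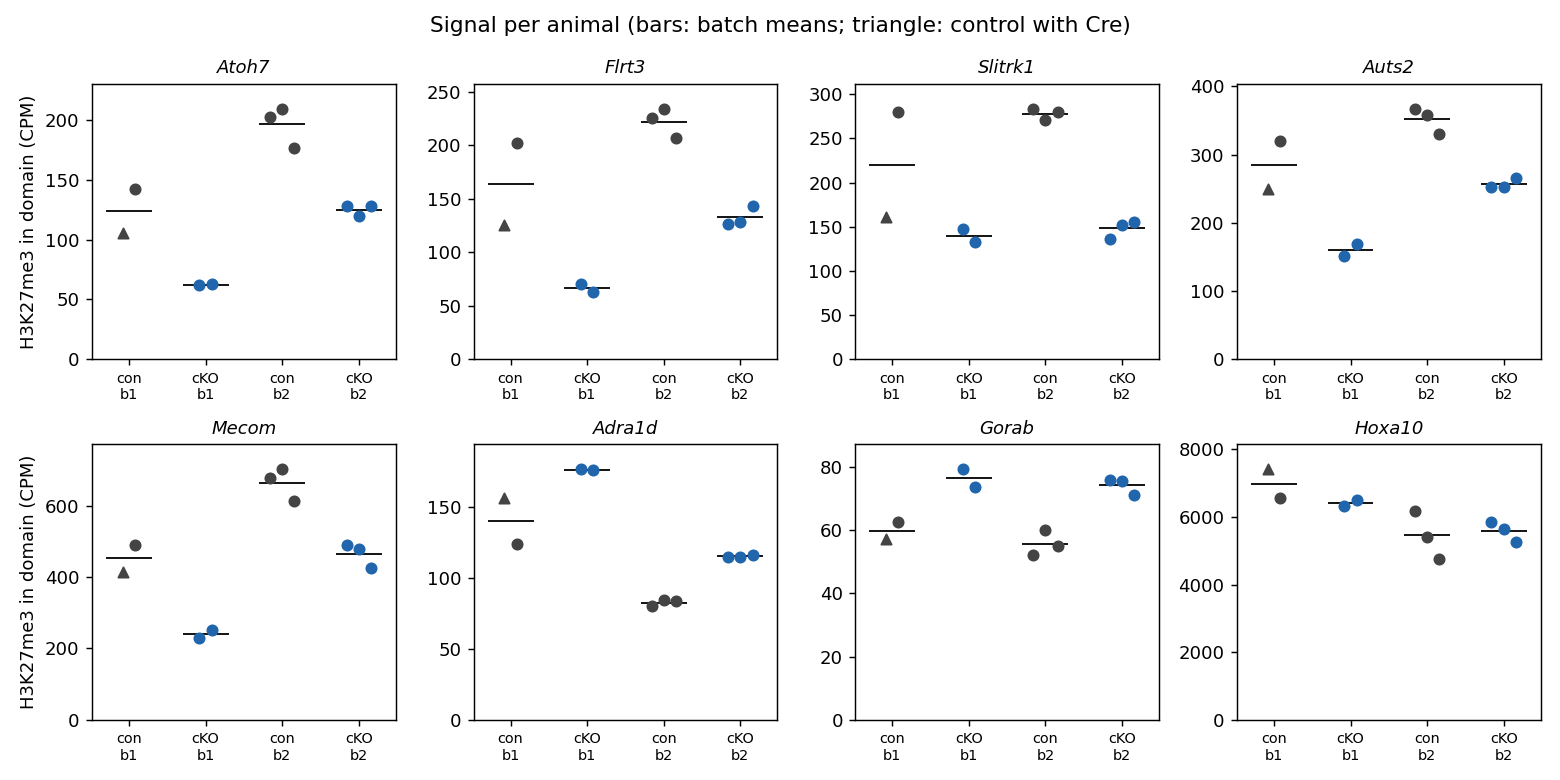
H3K27me3 (CPM) in 8 broad promoter domains for each animal, in control (con, grey) and cKO (blue) of batch 1 (b1) and batch 2 (b2), with batch means as bars and control 1, which carried Cre, as a triangle. In Atoh7, Flrt3, Slitrk1, Auts2 and Mecom the cKO animals lie below the controls of their batch, and in Adra1d and Gorab above. In Hoxa10 they lie below in batch 1 and overlap with the controls in batch 2.

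Several lower genes had more than 1 broad domain. Auts2, a nuclear protein that joins a variant of Polycomb repressive complex 1, had 3, and all 3 fell; the one with the smallest adjusted p held 249, 320, 367, 358 and 330 CPM in controls and 151, 169, 253, 253 and 266 CPM in cKO. Cre-carrying control 1 was again lowest of the controls there. It stood above both cKO animals of its own batch and below all 3 of batch 2, where values ran higher in both groups. Mecom, a zinc finger regulator, had 3 domains of which 2 fell, and its strongest went from 579 to 375 CPM in the means of 5 animals each (1.58-fold; log2 fold change -0.66 ± 0.08 SE). Both domains of Mef2c, a MADS-box factor of muscle and neurons, fell by 0.24 and 0.23 on the log2 scale. In other genes only 1 domain was called: 1 of 2 at Bdnf, Rbms1, Runx1t1 and Zfhx3, and 1 of 3 at Bnc2. The largest single decrease was at Pcca, a subunit of mitochondrial propionyl-CoA carboxylase: 92.9, 167, 186, 185 and 197 CPM in controls against 48.2, 51.1, 117, 103 and 113 CPM in cKO. Its log2 fold change was -0.96 ± 0.12 (SE, adjusted p = 1.37e-05 by edgeR). The widest domain called lower was the 66.7 kb domain at Lmo1, a LIM-only cofactor, which fell from 1255 ± 159 to 874 ± 159 CPM (SD, n = 5 each; 1.45-fold). The remaining lower domains named by the rule on adjusted p, 5730522E02Rik, Zfhx4, Arrdc4, Filip1 and Zbbx, had log2 fold changes of -0.72, -0.49, -0.49, -0.61 and -0.39.

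The Cre-carrying control stood apart from the other control of its batch in these domains. Control 1 held fewer CPM than control 2 in 53 of the 59 domains called lower (89.8%), against 146 of 1064 uncalled domains (13.7%), and the median log2 ratio of control 1 to control 2 was -0.21 in the first and 0.13 in the second. In 49 of the 59 it lay between control 2 and both cKO animals of batch 1, against 55 uncalled domains. These 2 controls also differed in sex, control 1 being male and control 2 female. The control 1 values enter the calls, and the part of Cre, of the heterozygous allele, of sex and of the single animal was not tested. Without control 1, 58 domains were called lower and 33 higher.

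The 17 domains called higher rose by 0.19 to 0.46 on the log2 scale, with a median of 0.27 (1.21-fold). Of them 14 were apart within both batches, a count drawn from the values that gave the calls. Adra1d, the alpha-1D adrenergic receptor, had the smallest adjusted p: 156, 124, 80.2, 84.5 and 83.5 CPM in controls 1 to 5 against 177, 176, 115, 115 and 116 CPM in cKO 1 to 5 (log2 fold change 0.41 ± 0.07 SE, adjusted p = 0.000308 by edgeR). The groups separated within batches, and batch 1 was higher than batch 2 in both. Gorab, a golgin of the Golgi apparatus, showed no overlap at all: 57.1, 62.6, 52.3, 60.0 and 54.9 CPM in controls and 79.2, 73.6, 75.9, 75.6 and 71.0 CPM in cKO. Adgra2, an adhesion receptor used in brain vessel growth, had the largest increase (0.46 ± 0.08 SE). Espn, an actin-bundling protein of sensory hair cells, rose 1.33-fold, and Nxph4, a neurexophilin, 1.25-fold. Pde4c, a cyclic AMP phosphodiesterase, rose 1.33-fold although its groups overlapped, with cKO 1 at 208 CPM below 3 controls. Rhcg, an ammonium transporter, rose 1.27-fold. Sertad4, Cacnb3 and Mfsd7a rose 1.18-, 1.21- and 1.18-fold and lost their calls when some single animals were left out (called in 5, 7 and 3 of 10 such fits).

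The 10 widest domains, from 83.6 to 270 kb, all stayed uncalled. The domain annotated to Hoxc13 covered 9 coding genes whole and held 9225, 8241, 7737, 7046 and 6428 CPM in controls against 8161, 8302, 7422, 7055 and 6813 CPM in cKO, with full overlap. Its log2 fold change was -0.03 (95% interval -0.19 to 0.13). At the Hoxa cluster the domain annotated to Hoxa10, 190 kb wide with 12 genes whole, had -0.03 (95% interval -0.20 to 0.14). The domains of Hoxb6 and of Evx2, which lies beside the Hoxd genes, had -0.05 and -0.02. Htatip2, Msx1, Pax3, Lmx1b, Wls and Hoxb13 followed in width, with log2 fold changes from -0.14 to -0.02. All 10 had a negative sign, and with total counts in place of TMM factors the median of the 133 domains of at least 30 kb went from -0.03 to 0.02.

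The densest domains were likewise uncalled. Alx1, a craniofacial homeobox factor, held 51.3 CPM per kb, the most of any domain, with 876 ± 75.9 CPM in controls and 841 ± 42.5 in cKO (SD, n = 5 each). Isl1, a LIM homeobox factor of retinal ganglion cells, held 47.3 CPM per kb with a log2 fold change of -0.06 (95% interval -0.20 to 0.07). Fezf1 and Osr1 had -0.06 and -0.02. Among uncalled domains with the smallest standard errors, Robo3, a receptor of axon crossing, held 291 ± 40.9 CPM in controls and 304 ± 39.1 in cKO (SD, n = 5 each), with a 95% interval of -0.05 to 0.18. Bcl6, Csmd1, Tfap2d and Ptprn, the others so chosen, had -0.03, 0.03, -0.09 and 0.10.

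Grouped by gene family, domains over transcription factor genes were wide, dense and mostly uncalled. The 8 families together (Hox, other homeobox and paired box, forkhead, Sox, T-box, basic helix-loop-helix and Id, developmental zinc finger, and nuclear receptor genes) held 227 domains with a median of 26.5 CPM per kb and a median width of 24.5 kb. Of these 12 were lower (5.29%, against 7.95% over all tested peaks) and 0 higher, and 214 lay within 0.2 of no change. Their median log2 fold change was -0.04, and it turned to 0.01 with total counts (4 then called higher) and with trend offsets (5 then called higher), so its sign rests on the scaling. Homeobox and paired box genes outside Hox had 5 lower of 100 (Lhx2, Otx1, Otx2, Zfhx3 and Zfhx4), helix-loop-helix genes 2 of 36 (Atoh7 and Npas3), zinc finger genes 3 of 41 (Bnc2 and 2 domains of Mecom), forkhead genes 1 of 18 (Foxp2) and Sox genes 1 of 5 (Sox5). T-box genes had 0 lower of 11, Hox genes 0 of 4 and nuclear receptor genes 0 of 12. The T-box domain with the smallest p, Tbx20, stood at -0.19 on the log2 scale (adjusted p = 0.0953 by edgeR).

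Axon guidance genes had the most negative median of any family outside the retinal lists, at -0.12 over 15 domains. Of these 5 fell (33.3%, against 7.95% over all tested peaks) and 0 rose. The 5 were 2 at Sema3a and 1 each at Sema6d, Slit3 and Slitrk1. Total counts gave 4 lower and 1 higher, and trend offsets 5 and 1. Slit3, a secreted ligand of Robo receptors, went from 415 ± 34.9 to 336 ± 30.8 CPM (SD, n = 5 each; 1.23-fold). Among cell adhesion and matrix genes 4 of 20 fell (20%, against the same 7.95%), at Cdh8, Flrt3, Lrrtm3 and Tenm3. In the main fit 0 rose, although 2 were called higher with total counts and 3 with trend offsets. Cdh8, a cadherin, fell 1.33-fold, and Tenm3, a teneurin that helps wire retinal ganglion cells, 1.29-fold. Ion channel and neurotransmitter receptor genes had 1 lower (Kcnj3) and 2 higher (Adra1d and Cacnb3) of 58, with a median of 0.02. Secreted signals and their modulators had 3 lower of 43 (6.98%, near the 7.95% over all tested peaks): Bdnf, a neurotrophin (1.40-fold), Nrg2, a neuregulin (1.22-fold) and Wnt5a, a Wnt ligand (1.18-fold). Wnt5a was called in 5 of 10 fits without 1 animal. Of 6 signalling receptor genes only Lgr5, a receptor for R-spondins, was called, and of 17 solute carrier genes 0 were called, with 3 of smallest p at -0.18 (Slc9a2), 0.21 (Slc34a3) and -0.19 (Slc1a2).

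**Figure D3:**
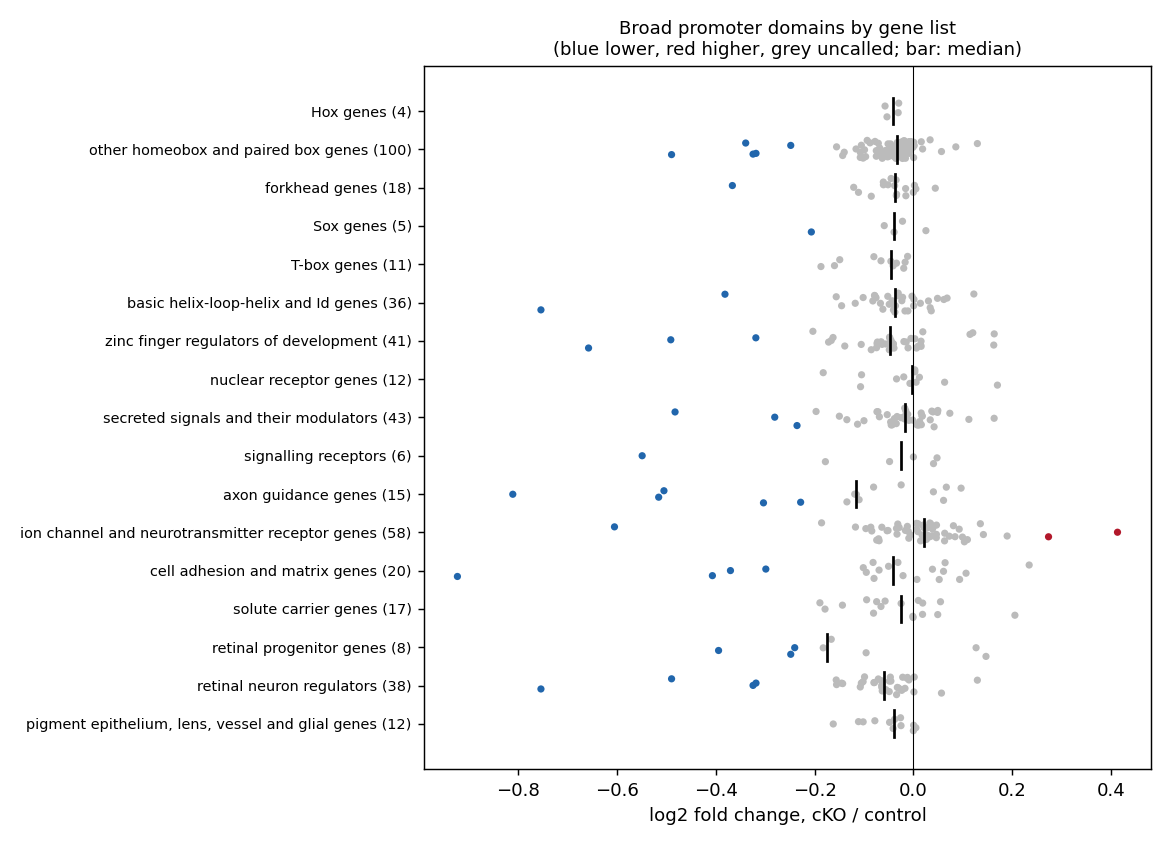
Log2 fold change of broad promoter domains by gene list, with the number of domains in brackets, each point a domain and the bar the median. Lower domains (blue) appear in most lists, and the 2 higher ones (red) are Adra1d and Cacnb3.

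By cell type, 8 domains lay on retinal progenitor genes and 3 of them fell (37.5%, against 7.95% over all tested peaks). These were Lhx2 (1.19-fold), Lin28a (1.31-fold) and Lin28b (1.18-fold). The last pair encode RNA-binding proteins of early progenitors. The median of the 8 was -0.17. All 3 calls were lost in batch 2 alone and in some fits without 1 animal (Lhx2 and Lin28a were called in 6 of 10 such fits, Lin28b in 7), and those of Lhx2 and Lin28a also with DESeq2. With total counts 2 of the 8 were lower and 2 higher, and with trend offsets 4 and 2. Among 38 domains of retinal neuron regulators 4 fell (Atoh7, Otx2, Zfhx3 and Zfhx4) and 0 rose, with a median of -0.06. This share can be read against the 7.95% over all tested peaks, and 1 of the 38 was called higher with total counts or trend offsets. Of 12 domains on genes of pigment epithelium, lens, vessels and glia, cell types that a dissected retina can also hold, 0 were called, and their median of -0.04 turned to 0.01 with total counts and with trend offsets. The extremes of these 12 were -0.16 (Dct, a melanin enzyme) and 0.005. H3K27me3 lost from a cell type cannot be told apart here from a shift in the number of those cells. Domains in none of the lists numbered 744, of which 31 were lower and 15 higher, with a median of 0.02. Of the Polycomb genes with a domain, Bmi1 had -0.05 and Cbx8 0.0002, neither called.

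Domains called lower mostly sat on long genes and covered little of them. Their genes had a median RefSeq length of 183 kb, of which the domain covered 6.28%, against 20 kb and 45.5% for uncalled domains and 16.6 kb and 48.2% for those called higher. Genes longer than 100 kb carried 39 of 55 lower domains (70.9%), 178 of 972 uncalled ones (18.3%) and 0 of 14 higher ones, counting domains that overlap their gene in RefSeq. In the longest quartile of genes 40 of 260 domains were lower (15.4%) and 0 higher, while the 3 shorter quartiles had 4, 4 and 7 lower (1.53%, 1.54% and 2.69%). Over all tested peaks 7.95% were lower and 1.6% higher. The split by length was present on both sides of the median signal per kb. Among genes over 100 kb, 31 of 124 domains at or below 17.0 CPM per kb (25%) and 8 of 93 above it (8.6%) were lower. Among shorter genes 13 of 397 (3.27%) and 3 of 427 (0.703%) were lower. Tenm3 (1300 kb), Auts2 (1110 kb) and Npas3 (824 kb) were among the long genes with a lower domain. The domains of Pcca, Tenm3 and Auts2 lay wholly inside the RefSeq gene and reached neither of its ends. Their promoter annotation thus refers to a start within the gene. A RefSeq start window of the gene lay inside 30 of the 59 lower domains and 673 of all 1140. Domains whose gene had no window count among the rest, so the rest do not all miss their start. Long genes also had steady domains, such as Csmd1 (1640 kb), at 280 ± 8.87 CPM in controls and 287 ± 10.7 in cKO (SD, n = 5 each). Atoh7 (1.5 kb), Slitrk1 (4.25 kb) and Otx2 (10.9 kb) were lower although their domains covered them whole. Of 311 domains that covered their gene whole 5 were lower (1.61%) and 2 higher (0.643%). Of 268 that covered under 10% of it 33 were lower (12.3%, against 7.95% over all tested peaks) and 1 higher (0.373%). Where a domain covered at least 2 coding genes whole, 0 of 44 were called.

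**Figure D4:**
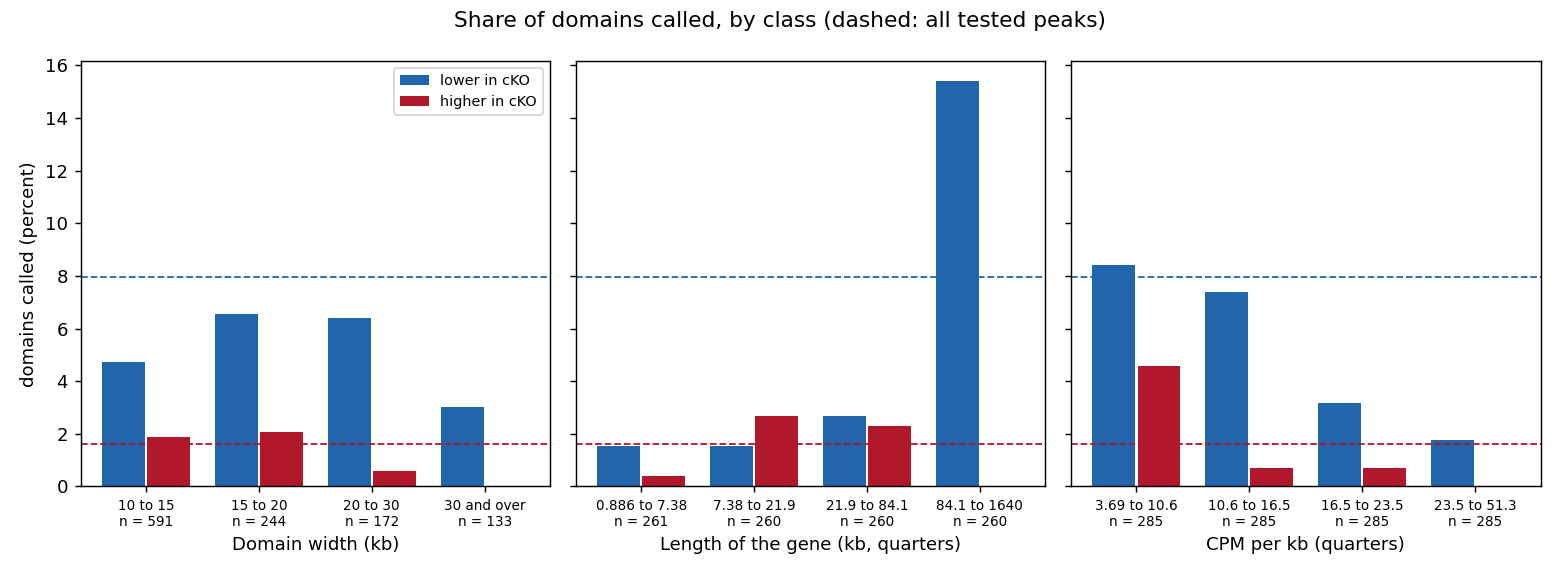
Percent of broad promoter domains called lower (blue) and higher (red) in cKO by domain width, gene length and mean signal, with the number of domains under each class and dashed lines at the shares over all tested peaks (7.95% and 1.6%). The longest quartile of genes reaches 15.4% lower, and both kinds of call thin out toward dense domains.

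Calls were also spread unevenly over signal per kb and width. By quartile of CPM per kb, sparsest first, 24, 21, 9 and 5 of 285 domains were lower (8.42%, 7.37%, 3.16% and 1.75%). In the same order 13, 2, 2 and 0 were higher (4.56%, 0.702%, 0.702% and 0%). Over all tested peaks 7.95% were lower and 1.6% higher, so lower calls in the 2 sparser quartiles were near the background. The medians of these quartiles were 0.08, 0.02, -0.01 and -0.03, and with total counts the first was 0.13 and the last changed sign to 0.02. By width, 28 of 591 domains of 10 to 15 kb, 16 of 244 of 15 to 20 kb, 11 of 172 of 20 to 30 kb and 4 of 133 of at least 30 kb were lower. These shares of lower domains (4.74%, 6.56%, 6.4% and 3.01%) were all below the 7.95% over all tested peaks. The corresponding numbers of higher domains were 11, 5, 1 and 0 (1.86%, 2.05%, 0.581% and 0%). Domains within 1 kb of a start had a median of 17.0 CPM per kb, and those at 1 to 2 kb and 2 to 3 kb had 8.45 and 6.51. The last 2 sets had medians of 0.11 (49 domains) and 0.13 (18 domains).

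Other peaks of the genes with a lower domain were often lower too. The 54 genes with a lower domain had 95 other tested peaks in 39 of them, of which 34 were lower (35.8%) and 0 higher, with a median of -0.29. For genes with only uncalled domains 50 of 687 other peaks were lower (7.28%) and 8 higher, close to the background. Cdh8 and Reln had 3 other peaks each, 2 of them lower, with medians of -1.14 and -1.01, larger decreases than in their broad domains (-0.41 and -0.73). The 6 other peaks of genes with a higher domain included 2 that rose, at Eif2s2 and Espn. Peaks of a gene share its surroundings and animals, so these shares are a description. The genes also differed in length (median 183 kb for lower domains and 20 kb for uncalled ones), and the shares were not matched for it.

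The 5.18% of broad promoter domains called lower can be set beside 2 other classes of peaks. Of 652 wide peaks that were not at coding promoters 237 were lower (36.3%) and 7 higher, with a median of -0.11 and 10.3 CPM per kb. Narrow promoter peaks of coding genes had 163 lower (3.13%) and 112 higher (2.15%) of 5208 tested, at 6.21 CPM per kb. The broad domains themselves had a median of 16.5 CPM per kb (quartiles 10.6 and 23.5). In shares of reads, the wide peaks elsewhere held 13.2% to 14.3% in controls and 12.3% to 13.1% in cKO, without overlap. Narrow promoters held 23.3% to 24.1% and 24.5% to 24.8%, again without overlap, whereas the share of the broad promoter domains overlapped. These differences between classes are counts and ranges, with no test of the classes against each other.

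The median of the 59 lower domains was -0.43 in batch 1 and -0.32 in batch 2. The change was larger in batch 1 in 41 of them (69.5%), near the share over all broad domains (718 of 1140, 63.0%). The test of a different genotype effect between batches (edgeR, interaction term) called 0 broad domains, where 0.013% of all tested peaks were called. At an unadjusted p under 0.05 there were 33 of the 1140, fewer than the 1 in 20 that chance would give. The unadjusted share over all tested peaks is not given here. These 33 were 12 of the 59 lower domains, 21 of the 1064 uncalled and 0 of the 17 higher. All 12 lower ones had the larger decrease in batch 1. Lgr5 had the smallest p, with -1.08 in batch 1 and -0.32 in batch 2 (adjusted p = 0.223). It held 94.9 and 111 CPM in controls 1 and 2 against 41.7 and 55.1 in cKO 1 and 2, and 144 to 161 CPM against 114 to 126 in batch 2. Lin28a had -0.85 and -0.16 in the same order. Without control 1, the domains of Flrt3 and Pcca passed this test. Batch 2 alone gave 39 lower and 13 higher domains. Batch 1 alone, with 2 animals per group, gave 0 of either, with 95 lower and 44 higher at an unadjusted p under 0.05 (edgeR). These were 12.2% of the domains, where 12.1% of all peaks tested in that batch reached such a p, and no other tool was run on it.

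**Figure D5:**
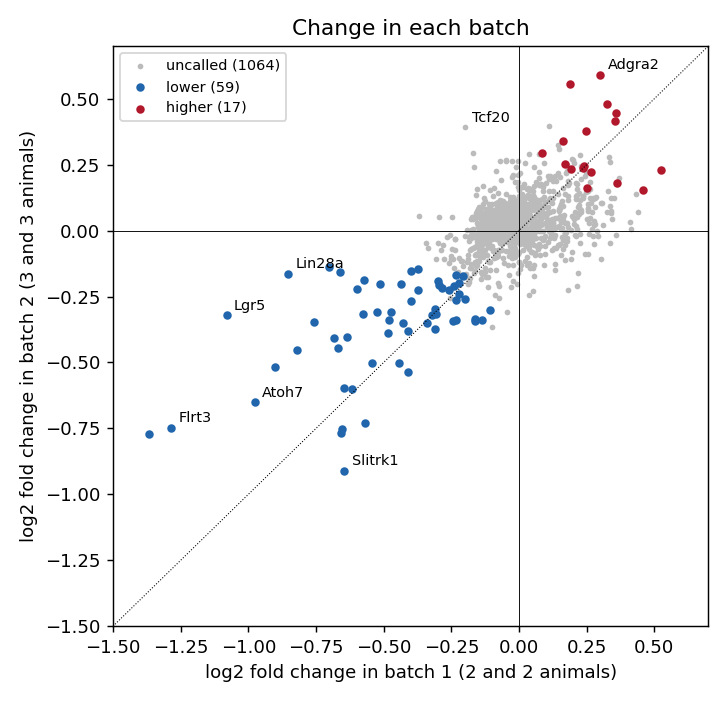
Log2 fold change of each broad promoter domain in batch 1 (horizontal) and batch 2 (vertical), with equality as the dotted line. All 59 lower domains (blue) lie in the lower left and all 17 higher ones (red) in the upper right, and Lgr5 and Lin28a lie far to the left of the line.

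The width limit cut through a continuous range. Just inside it, the domains at Mkx, Ffar3 and Gm1043 (10001, 10001 and 10011 bp) had log2 fold changes of -0.03, 0.12 and 0.06, and just outside it the peaks at Cys1, Lad1 and Pura (9.98 to 9.99 kb) had 0.10, 0.09 and -0.03. With a limit of 20000 bp, 15 of 305 domains were lower (4.92%) and 1 higher, and with 5000 bp 145 of 3107 (4.67%) and 82 (2.64%).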

How the data were processed

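H3K27me3 CUT&RUN was analysed in 16 libraries of 10 animals, and the 6 IgG libraries of the 22 listed were not analysed here. The authors deposited counts per library for 1 set of peaks, with an annotation of each peak, and these counts, called reads here, were used as deposited. Novoalign 4.02.02, SAMtools, MACS2, DESeq2 1.38.1 and mm10 are named without role or order, per the submitters' processing notes. Peak calling and counting settings, not given in the sources used here, could affect the values, as could duplicate reads and the IgG background. The signal, fold change and p-value columns of the deposited table were not used.

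Duplicates of an animal were summed. Peaks were filtered with filterByExpr on genotype, which left 15415 and kept all 1140 domains, and edgeR 4.0.16 (R 4.3.3) quasi-likelihood tests with TMM factors, a batch term and a group term were run on all of them. A call was an adjusted p under 0.05. Standard errors are the log2 fold change divided by the square root of F. CPM uses reads in peaks and the TMM factors, with no prior count. Replicate numbers are not given as pairs, so no block was used. DESeq2 1.42.0 and limma-voom (limma 3.58.1) were alternatives. The fit was tested on simulated data. Gene lengths and promoter windows came from RefSeq (GRCm38.p6, the assembly of mm10). Figures used Python 3.11.15 and matplotlib 3.10.9.

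The members, the 18 gene lists and the tests were chosen with earlier results of these data known. Named domains were the 15 lower and 10 higher calls of smallest adjusted p with 1 sign in both batches (1 per gene), the 10 widest, the 5 densest, the 5 uncalled with the smallest standard error, up to 3 of smallest p per list, the 3 on each side of the width limit, and the largest decrease and increase. Among the densest, 1 domain is not reported here but stayed in every test and count. Domains named outside this rule (Zfhx3, Lrrtm3, Sema6d, Mef2c, Eif2s2, Rbms1, Runx1t1 and second domains of a gene) were chosen after their values were seen. No sequence of chromosome 18 was used. P-values measure the spread between animals.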

Additional observations from a re-analysis of the deposited data

Results flagged for a closer look

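Of 170 sets of 5 animals (85 named domains and peaks in each group), 8 held 1 animal far from the other 4 by Dixon's criterion, where chance gives about 1 in 20. The number flagged was near this rate, and each set holds animals of both batches. Control 1, the control with Cre, was the low animal in 4 of the 8, all at domains called lower: 92.9 CPM at Pcca against 167 to 197 in the other controls, 160 at Slitrk1 against 270 to 284, 89.9 at 5730522E02Rik against 144 to 160, and 166 at Arrdc4 against 224 to 239. These 4 domains remained called lower in all 10 fits that left out an animal.

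At Pde4c, called higher, cKO 1 held 208 CPM and the other cKO animals 293 to 320. At uncalled domains, control 5 held 189 CPM at Ikzf1 against 207 to 213, cKO 2 held 381 at Nr2f2 against 310 to 328, and cKO 5 held 511 at Nr4a2 against 585 to 607.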

How the results depend on the processing

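The 59 lower domains became 17 with no batch term, 39 in batch 2 alone, 0 in batch 1 alone, and 37 at an adjusted p of 0.01. Other sets of domains gave 145 of 3107 at a width limit of 5000 bp (4.67%), 15 of 305 at 20000 bp (4.92%) and 30 of 673 that cover their own RefSeq start (4.46%). Leaving out 1 animal gave 44 to 95, the highest without control 5. The 17 higher domains became 67 with total counts, 11 with DESeq2 size factors, 9 with no filter, 1 with no batch term, 26 with sex as a further term, 0 in batch 1 alone, 8 with the DESeq2 test, and 7 and 40 at an adjusted p of 0.01 and 0.1. In the same 3 sets 82 (2.64%), 1 (0.328%) and 5 (0.743%) were higher. Leaving out 1 animal gave 8 (without control 2) to 33 (without control 1), and also moved the count by over 1.5 times without control 4 (11), cKO 2 (10), cKO 3 (10) or cKO 4 (9). Of 2 settings chosen after seeing the data, offsets for a trend with abundance gave 69 higher, and a low-count filter that includes batch gave 57 lower and 16 higher. The count of domains whose effect differed between batches was 0 to 2 when an animal was left out, the 2 without control 1. The cause was not tested.

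With the replicate number as a replicate block 67 domains were lower and 27 higher. The labels do not pair the animals. Deviations of same-numbered animals correlated at 0.101, 0.0206 and 0.049 in batch 2. Batch 1 has 2 animals per group, so both its numbers give 1 value by construction, -0.412.

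Over 85 named domains and peaks and 2125 refits, 1970 kept their direction and side of the threshold or stayed uncalled (53 of the uncalled changed sign), 28 gained a call, 127 lost it and 0 called values reversed. All 15 named lower domains lost their call in batch 1 alone, and 7 did with no batch term (Atoh7, Auts2, Mecom, Pcca, Reln, Zbbx and Zfhx4). Depth limits small changes: the median standard error of an uncalled domain was 0.0664 on the log2 scale.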
